A study of Mus musculus with 16 samples.

Results

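The subunits of the respiratory chain and of ATP synthase that are encoded in the nucleus were followed through myotubes with and without electrical pulse stimulation (EPS). Members were chosen by name, from the protein-coding mouse symbols that begin with Ndufa, Ndufb, Ndufc, Ndufs or Ndufv (assembly factors named Ndufaf left out), Uqcr, Cox4i, Cox5, Cox6a, Cox6b, Cox6c, Cox7a, Cox7b, Cox7c, Cox8 or Atp5, together with Sdha, Sdhb, Sdhc, Sdhd, Cyc1 and Cycs. The rule found 87 of the 48432 genes listed: 38 of complex I, 4 of complex II, 9 of complex III, 18 of complex IV, 17 of complex V and Cycs, the mobile electron carrier cytochrome c. Of these, 80 passed the filter on low counts and were tested. The cells were C2C12, a widely used mouse line of myoblasts, which fuse into myotubes able to contract, and they were differentiated for 5 days. The control group had no stimulation. The EPS group received 6 ms pulses at 1 Hz in a field of 2.75 V/mm, with a duty cycle of 0.6% and the polarity switched at 0.5 Hz, and no duration is given in the sources used here. Each group had 4 libraries, each sequenced on 2 lanes, and no label states that a group's libraries are separate cultures. The p-values therefore reflect how much these libraries vary, and that variation could be technical.

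The respiratory chain passes electrons from NADH (complex I) and succinate (complex II) through complex III and cytochrome c to complex IV, where oxygen is reduced. Complexes I, III and IV pump protons across the inner mitochondrial membrane, and ATP synthase, or complex V, uses the returning protons to make ATP. Skeletal muscle depends on this system during sustained contraction, and it replaces several complex IV subunits by muscle isoforms as it differentiates. The complexes are built from subunits of both genomes, and only those encoded in the nucleus are described.

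The 7 deep libraries held from 12.6 to 20.7 M fragments (M for mega), while control replicate 2 had 0.354 M. In that shallow library the tested members had a median of 17.5 fragments and 21 of them had under 10. There 3 fragments, the limit that a count of 0 allows, correspond to 8.51 CPM. Myotube markers were abundant in every library, and adipocyte markers summed to under 1 CPM. The 4 macrophage and leukocyte markers, of which Adgre1 was at 0 throughout, summed to as much as 27.6 CPM, in EPS library 2. Levels are given as CPM, fragments per M fragments of the TMM-scaled library. The abundance of single members is ranked on the deposited FPKM scale, which corrects for transcript length. Shares of fragments, of a complex or within an isoform pair, are not corrected for length.

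No subunit passed the test as higher or lower in EPS. With edgeR's quasi-likelihood test at an adjusted p of 0.05, 0 of 80 members were called higher and 0 were called lower, where 2.30% and 0.758% of all 13987 tested genes were called. At an unadjusted p under 0.05, 11 members were lower and 0 higher, against 6.33% and 12.2% of all tested genes. DESeq2 also called 0 members at an adjusted p of 0.05, where it called 4.32% of its genes higher and 1.89% lower. With limma on log2(FPKM + 0.1), 0 members were called, against 0.672% higher and 0.207% lower. The estimates nevertheless lay on one side: 77 of the 80 fold changes were negative, compared with 49.1% of all tested genes. Among 1588 tested protein-coding genes that are no members, with transcript lengths in the members' middle range, 67.9% were negative. The median log2 fold change (EPS minus control) was -0.31 over the members, which is 19.3% lower, and 0.01 over all tested genes. The 3 positive estimates belonged to Uqcrq, Atp5s and Cycs. Members were read together from a list chosen by name, and their fold changes share the same 8 libraries.

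The medians of the 5 complexes lay close together. The median log2 fold change was -0.31 for the 37 tested members of complex I, -0.34 for the 4 of complex II, -0.35 for the 9 of complex III, -0.28 for the 14 of complex IV and -0.29 for the 15 of complex V. The range between the quartiles ran from -0.45 to -0.26 in complex I, from -0.54 to -0.22 in complex IV and from -0.41 to -0.21 in complex V, so these ranges overlap. All tested members of complexes I, II and IV had negative estimates. The exceptions were 1 of 9 in complex III and 1 of 15 in complex V. The size of the medians depended on single EPS libraries: over all members it was -0.21 without EPS library 2 and -0.47 without EPS library 3. Complex I was at -0.47 without EPS library 3. Complex IV was at -0.16 without EPS library 2 and -0.45 without EPS library 3, and complex V at -0.17 without EPS library 1 and -0.47 without EPS library 3.

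**Figure D1:**
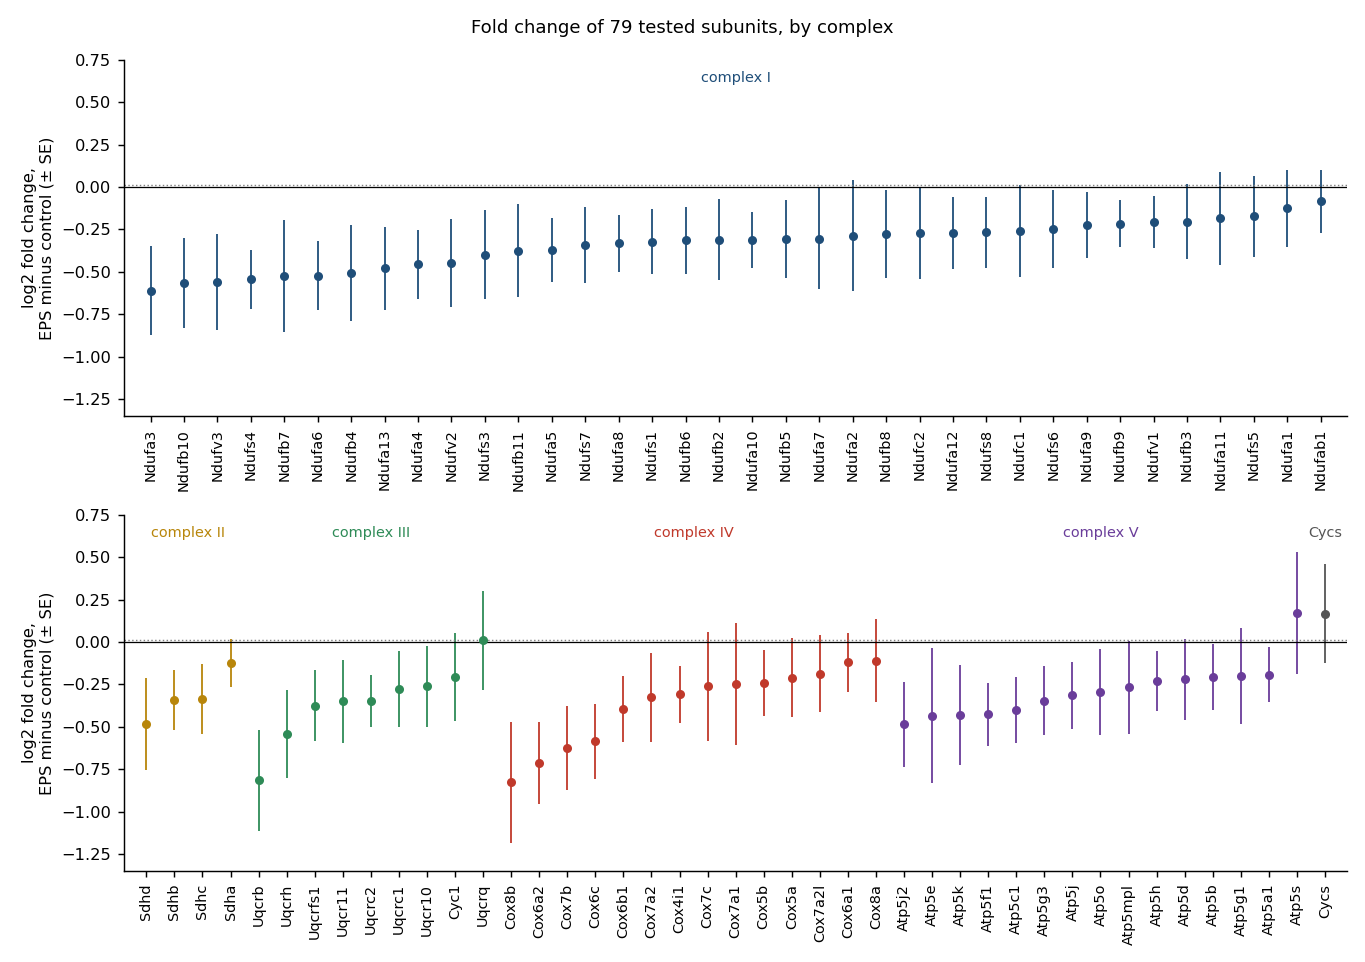
Fold change of 79 of the 80 tested subunits (log2, EPS minus control, from edgeR; bars, SE), grouped by complex and sorted within each, with complex I above and the others below. The dotted line is the median of all tested genes at 0.01; 76 of the points lie below 0, from Cox8b at -0.83 to Ndufab1 at -0.09, and none passed the adjusted threshold.

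The lower levels came mainly from 2 of the 4 EPS libraries. All members together held 0.806%, 0.752%, 0.872% and 0.832% of the fragments in control libraries 1 to 4, and 0.544%, 0.443%, 0.836% and 0.791% in EPS libraries 1 to 4. EPS libraries 1 and 2 thus lay below every control, and EPS library 3 lay within the range of the controls. EPS library 4 was below the 3 deep controls and lay above only control library 2, the shallow one. The mean was 0.816% ± 0.0502 (SD, n = 4) in control and 0.654% ± 0.190 (SD, n = 4) in EPS. In each of the 5 complexes EPS libraries 1 and 2 were below every control and EPS library 3 was within the control range. EPS library 4 was within it in complex V, and in complexes I and II only through the shallow control. In complexes I and II it was below all 3 deep controls, in complex II at 0.0379% against a lowest deep control of 0.0411%. It was below every control in complex III (0.0677%, with the lowest control at 0.0704%). In complex IV it was just below every control (0.1236%, with the lowest control at 0.1240%). Complex I held 0.2499%, 0.216%, 0.267% and 0.255% in control and 0.166%, 0.127%, 0.253% and 0.239% in EPS. Complex V, the largest contributor, held 0.320%, 0.276%, 0.344% and 0.337% in control and 0.219%, 0.188%, 0.339% and 0.322% in EPS. In both, EPS libraries 1 and 2 stood apart from the other 6. Of the 80 tested members, 75 in EPS library 1 and 76 in EPS library 2 were below all 3 deep controls, compared with 24 in EPS library 3 and 41 in EPS library 4. Shares of all tested genes are not given for this arrangement, so these counts compare the EPS libraries only with each other. The members' median log2 deviation from the control mean was -0.47, -0.75, 0.04 and -0.04 in EPS libraries 1 to 4. Over all tested genes it was 0.12, 0.10, 0.11 and 0.12. Over the 1588 protein-coding genes in the members' middle range of length it was -0.20, -0.37, 0.22 and 0.18.

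**Figure D2:**
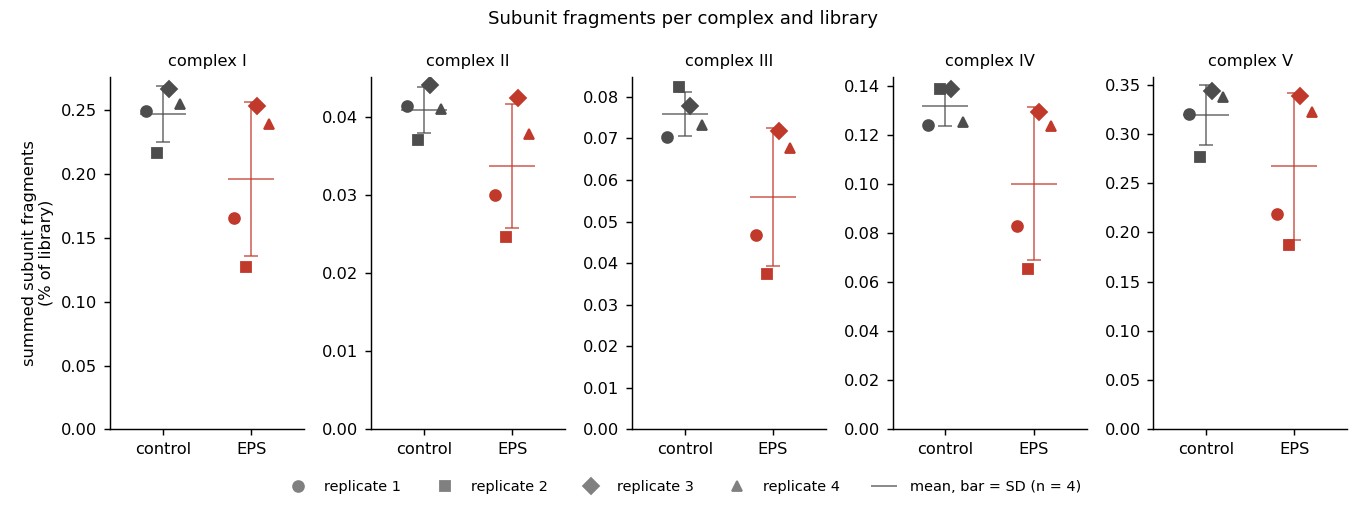
Fragments of all subunits of a complex as a percentage of the library (vertical axes, each starting at 0), for the 4 control and the 4 EPS libraries (horizontal axis, one symbol per replicate number; line and bar, mean and SD). In every panel EPS replicates 1 and 2 are the lowest points, for example 0.166% and 0.127% in complex I against a lowest control of 0.216%.

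Libraries with the same replicate number deviated from their group means together, although numbers 3 and 4 also did so with each other, and the difference was also taken within each pair. The median log2 difference of the members was -0.51 in pair 1, -0.46 in pair 2, -0.11 in pair 3 and -0.14 in pair 4, and pair 2 holds the shallow control. The members were thus lower in EPS in all 4 pairs, by small amounts in pairs 3 and 4. The number of the 80 members that were lower was 76, 59, 63 and 66 in pairs 1 to 4, where 49.4%, 40.0%, 48.4% and 49.8% of all tested genes were lower. In 36 members all 4 pairs were lower, a count that has no share over all tested genes beside it here. By complex, pair 3 gave medians of -0.12, -0.17, -0.18, -0.13 and -0.06 for complexes I to V. Pair 4 gave -0.14, -0.14, -0.20, -0.07 and -0.14.

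**Figure D3:**
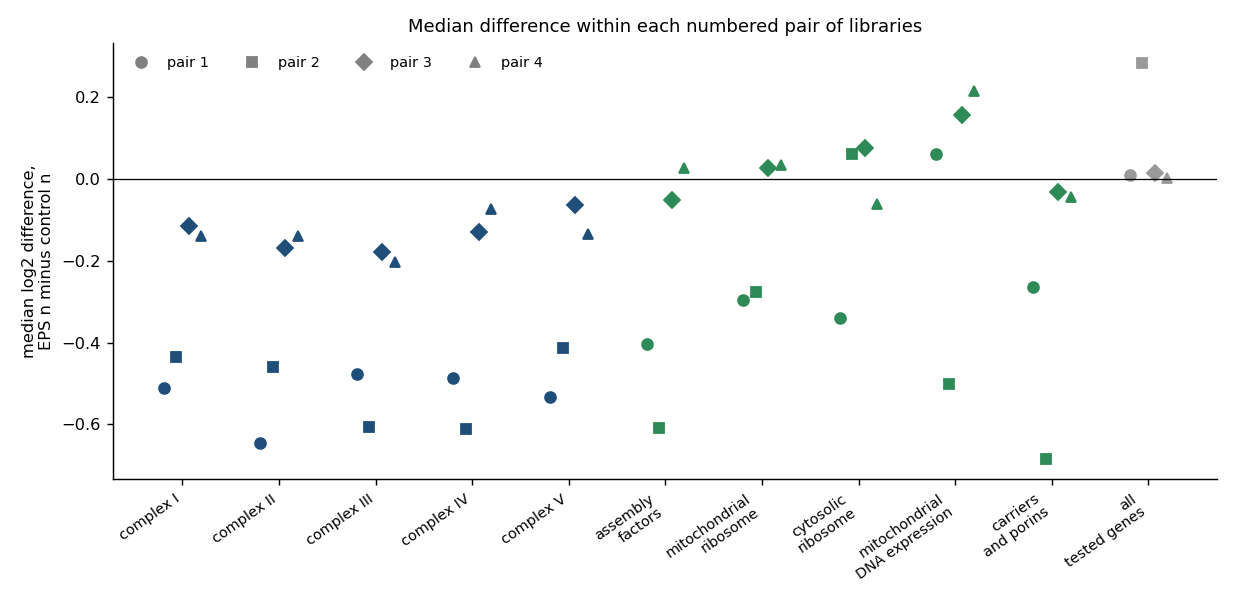
Median log2 difference between EPS and control libraries of the same number (vertical axis) for each complex (blue), each related gene list (green) and all tested genes (grey), with one symbol per pair. All 20 medians of the complexes are below 0, and pairs 1 and 2 are the lowest in each; the grey square, at 0.28, is the pair that holds the shallow control library.

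Blocking on the replicate number brought 2 members past the threshold, both lower in EPS. They were Ndufv3, at a log2 fold change of -0.54 ± 0.15 (SE; adjusted p = 0.0388), and Cox6a2, at -0.63 ± 0.18 (SE; adjusted p = 0.0484), both from edgeR with the block. That fit called 4.78% of all tested genes lower and 7.31% higher, so 2 of 80 members is below the background. In the 3 pairs without the shallow library, 5 members were lower, all of complex I: Ndufv2 (adjusted p = 0.0197), Ndufv3 (0.0275), Ndufb7 (0.0328), Ndufs4 (0.0481) and Ndufa6 (0.0495), by edgeR. Cox6a2 missed the threshold there (adjusted p = 0.0531), and the background was 8.23% lower and 9.10% higher.

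Markers of the myotubes themselves were lower in the EPS libraries. The 7 measured of 8 myotube markers (Ttn was marked as having too many fragments) summed to 25190, 21829, 22222 and 22445 CPM in control and to 14484, 13087, 16057 and 18325 CPM in EPS, with no overlap. All 7 had negative fold changes, with a median of -0.70, and 0 of 7 were called. Unlike the subunits, these markers were also below every control in EPS libraries 3 and 4. The 5 markers of undifferentiated myoblasts had negative fold changes too, and summed to 354 to 748 CPM in control and 281 to 610 CPM in EPS. The 4 fibroblast markers summed to 82.8 to 261 CPM in control and 56.2 to 196 CPM in EPS. The 4 macrophage and leukocyte markers summed to 1.62 to 2.04 CPM in the deep controls and 8.51 CPM in the shallow one. In EPS libraries 1 to 4 they summed to 9.56, 27.6, 2.64 and 2.63 CPM. The 4 endothelial markers summed to 0 to 1.26 CPM in control and to 4.27, 14.7, 1.14 and 1.15 CPM in EPS libraries 1 to 4. Among the EPS libraries, both lists were highest in 1 and 2, where the subunits were lowest. In each of these lists only 1 of the 4 markers passed the filter on low counts. A sum therefore does not describe its list as a whole. The part of any of these cell types in the lower subunit levels was not tested. In bulk samples fewer cells of a type and less RNA per cell cannot be told apart.

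Complex I takes electrons from NADH through a peripheral arm of flavin and iron-sulfur subunits and passes them to ubiquinone. Its 7 core subunits encoded in the nucleus carry these cofactors or the quinone site, and their median log2 fold change was -0.32. The 30 tested accessory subunits, which surround and stabilise the core, had a median of -0.31. Core and accessory subunits therefore had nearly the same estimate. Among the core, the fold change ran from -0.21 for Ndufv1, which binds FMN and NADH, to -0.45 for Ndufv2. Ndufs1, the largest iron-sulfur subunit, was at -0.32. Ndufs3 was at -0.40, Ndufs7 at -0.34 and Ndufs8 at -0.27.

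The accessory subunit Ndufs4 (ENSMUSG00000021764, mm10 chromosome 13, 114287795 to 114388258, minus strand) had the lowest adjusted p of all members. It is needed for a stable NADH-binding end of complex I, and its loss in mice is a model of Leigh syndrome. Its level was 59.3, 51.1, 56.1 and 49.4 CPM in control libraries 1 to 4 and 31.0, 31.1, 42.1 and 44.9 CPM in EPS libraries 1 to 4. Every EPS library was below every control, with libraries 1 and 2 lowest. The log2 fold change was -0.54 ± 0.17 (SE), and the adjusted p of edgeR was 0.126.

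Ndufv3 (ENSMUSG00000024038, chromosome 17, 31520115 to 31531331, plus strand) is a small accessory subunit of the flavoprotein part. It was at 60.0, 62.4, 92.5 and 75.5 CPM in control and at 34.4, 30.9, 70.5 and 63.9 CPM in EPS. The groups overlapped, but each EPS library was below the control of the same number. Its fold change without the block was -0.56 ± 0.28 (SE; edgeR adjusted p = 0.326).

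Ndufa3 had the lowest estimate of complex I, at 16.2, 14.2, 17.7 and 18.6 CPM in control and 7.56, 8.09, 14.9 and 14.3 CPM in EPS. Its log2 fold change was -0.61 ± 0.26 (SE; edgeR adjusted p = 0.24), it overlaps a gene on the opposite strand, Tfpt, and EPS libraries 3 and 4 were just above the shallow control. At the other end, Ndufab1, the mitochondrial acyl carrier protein, was at 9.90 to 11.3 CPM in control and 8.67 to 10.8 CPM in EPS, with a fold change of -0.09. The most abundant complex I subunit per length was Ndufb9, with a mean of 270 FPKM in the 3 deep controls. It was at 175, 173, 182 and 168 CPM in control and 140, 135, 170 and 156 CPM in EPS. Its fold change was -0.22 ± 0.14 (SE; edgeR adjusted p = 0.456). Across complex I, 4 members had EPS libraries all below the controls (Ndufa4, Ndufa5, Ndufa6 and Ndufs4). Over all complexes there were 8 such members, adding Uqcrc2, Cox6a2, Cox7b and Atp5f1, and 4.83% of all tested genes had this arrangement. No member had all EPS libraries above the controls, where 9.32% of all tested genes did. Against the 3 deep controls alone there were 20 of 80, compared with 11.0% of all tested genes.

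Complex II, succinate dehydrogenase, links the citric acid cycle to the chain and has no subunit encoded in mitochondria. Its flavoprotein Sdha was at 189, 159, 191 and 181 CPM in control and 172, 165, 178 and 149 CPM in EPS. The groups overlapped, and the fold change of -0.13 ± 0.14 (SE; edgeR adjusted p = 0.684) was the smallest of the 4. The membrane anchor Sdhd was at 69.9, 70.9, 83.2 and 69.5 CPM in control and 39.5, 29.8, 70.4 and 70.8 CPM in EPS. EPS libraries 1 and 2 were low and libraries 3 and 4 were within the control range, for a fold change of -0.48 ± 0.27 (SE; edgeR adjusted p = 0.375). The iron-sulfur subunit Sdhb (-0.34) and the other anchor, Sdhc (-0.34), lay between.

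Complex III, the cytochrome bc1 complex, moves electrons from ubiquinol to cytochrome c. Its catalytic subunits Uqcrfs1, the Rieske iron-sulfur protein, and Cyc1, cytochrome c1, had log2 fold changes of -0.37 and -0.21. The core proteins Uqcrc1 and Uqcrc2 were at -0.28 and -0.35. Uqcrc2 was at 115, 159, 134 and 118 CPM in control and 95.2, 93.9, 110 and 107 CPM in EPS, with no overlap. The small subunit Uqcrb, which contacts the quinone site, was both the most abundant per length (199 FPKM in the deep controls) and the lowest in estimate. It was at 129, 241, 124 and 96.8 CPM in control and 62.2, 57.5, 101 and 100 CPM in EPS. The shallow control was the highest and the groups overlapped, for a fold change of -0.82 ± 0.30 (SE; edgeR adjusted p = 0.171), which was -0.44 in the 3 pairs without it. Of its 50-base windows, 43.2% are shared with other annotated transcripts. Uqcrq, another small subunit, was at 15.4, 5.67, 17.0 and 25.8 CPM in control and 19.3, 11.7, 22.8 and 19.0 CPM in EPS, and its fold change was 0.01 ± 0.29 (SE).

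Cytochrome c itself was measured at low counts. Cycs was at 3.79, 11.3, 4.56 and 5.30 CPM in control and 4.94, 6.33, 5.84 and 5.12 CPM in EPS. The groups overlapped, the fold change was 0.17 ± 0.29 (SE; edgeR adjusted p = 0.808), and 28.2% of its windows are shared with 43 other annotated genes, so its counts are uncertain.

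Complex IV, cytochrome c oxidase, hands the electrons to oxygen. Its catalytic core is encoded in mitochondria, and the members here are the surrounding subunits. The most abundant per length was Cox6c, at a mean of 588 FPKM in the deep controls. It was at 195, 301, 207 and 171 CPM in control and 118, 112, 169 and 173 CPM in EPS, and the groups overlapped at 1 library. Its fold change was -0.59 ± 0.22 (SE; edgeR adjusted p = 0.191). Cox7b was at 104, 162, 122 and 112 CPM in control and 57.1, 55.6, 103 and 101 CPM in EPS, without overlap. Its fold change was -0.62 ± 0.25 (SE; edgeR adjusted p = 0.208). The early assembly subunits Cox4i1 and Cox5a were at -0.31 and -0.21, and the zinc-binding Cox5b was at -0.24. Cox6b1 was at -0.40. Ndufa4 is named for complex I, where the rule put it, but structures place it in complex IV; it had a fold change of -0.46, and moving it changed the median of complex IV from -0.28 to -0.31.

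Several complex IV subunits exist as a muscle and a general isoform, and their balance was compared within each library. Cox6a2, the heart and skeletal muscle form (ENSMUSG00000030785, chromosome 7, 128205435 to 128206387, minus strand), was at 110, 62.4, 77.5 and 58.8 CPM in control and 50.2, 32.4, 53.2 and 56.6 CPM in EPS. All EPS libraries were below all controls, by a small margin in library 4, and the fold change was -0.71 ± 0.24 (SE; edgeR adjusted p = 0.147). Cox6a1, the general form (ENSMUSG00000041697, chromosome 5, 115345642 to 115348981, minus strand), was at 104, 65.3, 111 and 93.3 CPM in control and 86.0, 76.4, 97.3 and 94.1 CPM in EPS, with overlapping groups and a fold change of -0.12. Cox6a2 accordingly made up 51.4%, 48.9%, 41.2% and 38.7% of the pair's fragments in control and 36.9%, 29.7%, 35.4% and 37.6% in EPS. These shares did not overlap. The log2 ratio of Cox6a2 to Cox6a1 differed by -0.61 on average (EPS minus control), and by -0.86, -1.17, -0.35 and -0.07 in pairs 1 to 4, so that pair 4 showed almost no difference.

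Cox8b, the muscle form of subunit 8, had the lowest estimate of all members. It was at 17.0, 45.4, 21.2 and 16.3 CPM in control and 8.02, 7.53, 17.2 and 14.3 CPM in EPS. The control value of 45.4 is the shallow library's, from 16 fragments, and without that library the log2 ratio of Cox8b to Cox8a differed by -0.47 in place of -0.96. The fold change was -0.83 ± 0.36 (SE; edgeR adjusted p = 0.248), and -0.11 for Cox8a, the general form. Cox8b made up 22.1%, 48.5%, 19.5% and 16.9% of the pair in control and 15.8%, 11.4%, 17.6% and 14.7% in EPS, and the groups overlapped. Cox7a1, the third muscle form, was low throughout, at 2.84 to 7.47 CPM in control and 2.40 to 6.92 CPM in EPS. It made up 6.07% to 10.7% of the pair with Cox7a2 in control and 7.37% to 10.0% in EPS. In the shallow control Cox7a1 was at 2.84 CPM, under the 8.51 CPM that 3 fragments correspond to there. This pair therefore showed no shift of the kind seen in the Cox6a pair; the mean difference of its log2 ratio was 0.10, within the spread between libraries. The remaining alternative forms were nearly unused: Cox4i2, Cox6b2, Cox7b2 and Cox8c each had at most a few fragments in a library, and Ndufa4l2 made up 0% to 0.724% of the pair with Ndufa4.

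**Figure D4:**
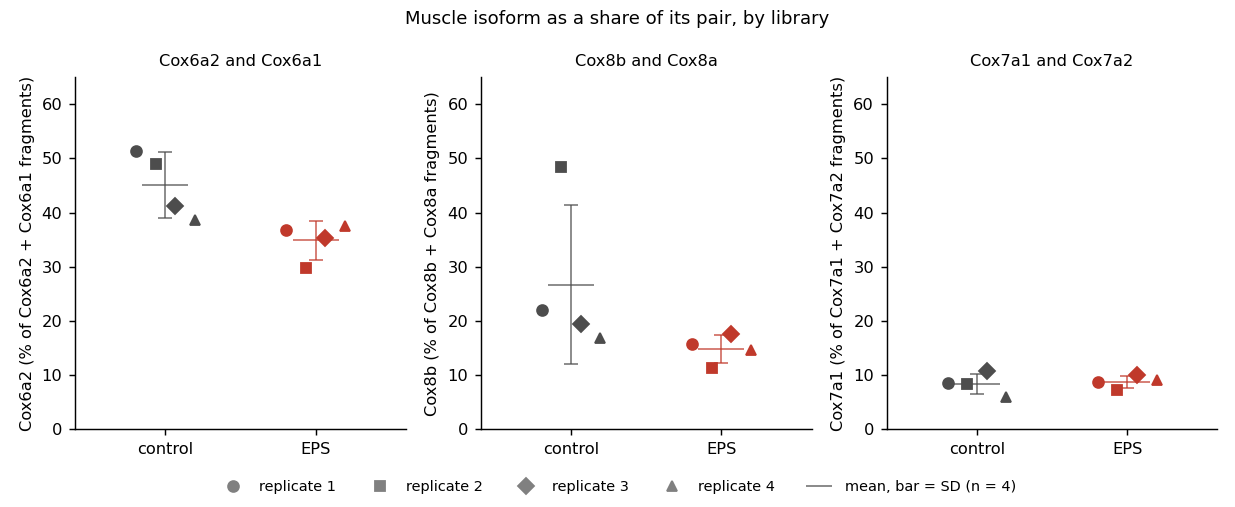
Fragments of the muscle isoform as a percentage of the fragments of both isoforms (vertical axis), in 4 control and 4 EPS libraries (one symbol per replicate number; line and bar, mean and SD). The Cox6a2 share was 38.7% to 51.4% in control and 29.7% to 37.6% in EPS; in the Cox8 panel the control point at 48.5% is the shallow library, and the Cox7a panel shows overlapping groups.

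Promoter windows of the members were searched for motifs of factors known to act on mitochondrial or muscle genes. RefSeq windows (GRCm38.p6, 250 bases before to 50 bases after the start) were matched for 70 of the 87 members, Cox6a2 not among them. The bases before the start are shown for the Cox8 pair and Cox6a1, whose isoforms differed in estimate, and for Ndufv3, which passed the threshold with the block, each from 5′ to 3′ with capitals marking any of the searched motifs.
Cox8b, muscle form, chr7:140900447-140900696, minus strand: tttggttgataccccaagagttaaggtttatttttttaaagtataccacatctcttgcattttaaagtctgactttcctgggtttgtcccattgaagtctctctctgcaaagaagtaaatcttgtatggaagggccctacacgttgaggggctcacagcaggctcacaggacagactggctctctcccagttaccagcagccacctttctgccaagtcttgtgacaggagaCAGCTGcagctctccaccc
Cox8a, general form, chr19:7217617-7217866, minus strand: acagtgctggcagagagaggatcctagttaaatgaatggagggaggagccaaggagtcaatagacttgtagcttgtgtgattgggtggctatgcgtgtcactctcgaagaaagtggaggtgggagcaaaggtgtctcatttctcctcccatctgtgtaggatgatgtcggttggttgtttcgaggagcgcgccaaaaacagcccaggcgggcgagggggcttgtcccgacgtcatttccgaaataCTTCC
Cox6a1, general form, chr5:115348959-115349208, minus strand: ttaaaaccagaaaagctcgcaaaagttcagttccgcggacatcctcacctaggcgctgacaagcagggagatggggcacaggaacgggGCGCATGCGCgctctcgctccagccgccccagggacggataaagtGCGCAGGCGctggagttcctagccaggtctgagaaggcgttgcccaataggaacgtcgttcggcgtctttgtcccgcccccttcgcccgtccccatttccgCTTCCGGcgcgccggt
Ndufv3, chr17:31519865-31520114, plus strand: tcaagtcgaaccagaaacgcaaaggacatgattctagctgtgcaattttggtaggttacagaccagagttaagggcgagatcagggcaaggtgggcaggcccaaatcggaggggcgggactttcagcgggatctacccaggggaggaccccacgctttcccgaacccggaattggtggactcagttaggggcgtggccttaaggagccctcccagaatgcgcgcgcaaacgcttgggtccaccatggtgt
The motifs were searched on both strands of the whole window: GCGCANGCG for NRF1, AAGGTCA for the estrogen-related receptors (ERR), CCGGAAG for the ETS factor GABP, AAGATGGCG for YY1, the E-box CAGCTG, and MEF2 by its consensus. No motif contains another. The capitals in Cox8b are an E-box, those in Cox8a a part of a GABP match that runs past the start, and those in Cox6a1 NRF1 matches and a GABP match; Ndufv3 has none in its window. Over the members, NRF1 letters were found in 20 of 70 windows (28.6%), compared with 6.49% of 27025 windows, 1 a gene. GABP letters were in 15 (21.4%, against 9.14%), ERR letters in 8 (11.4%, against 4.65%) and YY1 letters in 6 (8.57%, against 1.48%). The E-box was in 6 (8.57%, against 16.1%) and the MEF2 consensus in 0 (against 3.29%). NRF1 matches fell in 8 of 33 complex I, 2 of 3 complex II, 2 of 5 complex III, 1 of 13 complex IV and 6 of 15 complex V windows, and in that of Cycs. The 27025 windows were not matched to the members for expression or base composition, and a match describes the letters only.

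Complex V, the ATP synthase, has a catalytic F1 head on a membrane rotor and stator. The head subunits Atp5a1, Atp5b, Atp5c1, Atp5d and Atp5e had a median log2 fold change of -0.22, and the 10 other tested members one of -0.30. Atp5b, the catalytic beta subunit (ENSMUSG00000025393, chromosome 10, 128083273 to 128090391, plus strand), was the most abundant member of the whole set, at a mean of 642 FPKM in the deep controls. It was at 1381, 1004, 1425 and 1332 CPM in control and 954, 941, 1309 and 1264 CPM in EPS. EPS libraries 1 and 2 were the lowest, and libraries 3 and 4 were above the shallow control but below the other 3, for a fold change of -0.21 ± 0.20 (SE; edgeR adjusted p = 0.625). Its partner, the alpha subunit Atp5a1, was at 740, 769, 763 and 807 CPM in control and 582, 607, 765 and 740 CPM in EPS, with a fold change of -0.19. The stalk subunit Atp5c1 was at -0.40.

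In the rotor ring, 3 genes encode the same mature c subunit. Atp5g3 was the main one, with a mean of 178 FPKM in the deep controls against 47.4 FPKM for Atp5g1, and their fold changes were -0.35 and -0.20. Atp5g2 was not tested, because few fragments were assigned to it, and 87.4% of its windows are shared with other transcripts. The lowest estimate of complex V was that of the membrane subunit Atp5j2, at 59.5, 68.1, 62.4 and 67.0 CPM in control and 33.9, 28.4, 64.0 and 55.8 CPM in EPS, for a fold change of -0.48 ± 0.25 (SE; edgeR adjusted p = 0.339). The stator subunit Atp5f1 was at 187, 187, 207 and 194 CPM in control and 121, 109, 176 and 172 CPM in EPS. Its groups did not overlap, and the fold change was -0.43 ± 0.19 (SE; edgeR adjusted p = 0.253). The highest estimate was that of Atp5s, which carries the family name but is a coupling factor and not one of the standard subunits; it had 3.29 to 5.74 CPM in the deep controls, none in the shallow one, 3.29 to 5.85 CPM in EPS and a fold change of 0.17 ± 0.36 (SE).

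Most of these transcripts are short, so the comparison was repeated with transcript length taken into account. The members' median length was 751 nt and 51 of the 80 were under 1000 nt. Across 7469 genes with at least 20 CPM, the log2 level against the mean of the libraries correlated with log2 length at r of 0.10, 0.12, -0.24 and -0.16 in control libraries 1 to 4 and 0.25, 0.29, -0.17 and -0.13 in EPS libraries 1 to 4. EPS libraries 1 and 2, where the subunits were lowest, were also those with the lowest relative level of short transcripts. Other genes under 1000 nt had a median log2 fold change of -0.16 (1616 genes) and longer ones of 0.04 (12251 genes). Members under 1000 nt had a median of -0.31 and longer members one of -0.31, so both kinds were below other genes of their length. Protein-coding genes that are no members, within the members' middle range of length (569 to 1347 nt), had a median of -0.16 (1588 genes).

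An offset that removes each library's trend with length moved the medians toward 0 in 4 of the 5 complexes. They became -0.25, -0.34, -0.28, -0.19 and -0.25 for complexes I to V, compared with -0.03 for all tested genes, and 74 of the 80 estimates stayed negative. The estimates of 3 members changed sign, Ndufa1 and Cox6a1 to 0.04 and Cox8a to 0.03, while Cox6a2 stood at -0.62 and Cox8b at -0.68. With the offset the members' median deviation from the control mean was -0.23, -0.37, -0.13 and -0.19 in EPS libraries 1 to 4, compared with -0.47, -0.75, 0.04 and -0.04 without it. The 4 EPS libraries were thus closer to each other on this scale, and all 4 were below the controls, which ran from -0.04 to 0.08. No member was called with the offset alone (edgeR), where the background was 1.56% lower and 2.37% higher. Combined with the block, 4 members were lower: Ndufs4 (adjusted p = 0.0372), Cox6a2 (0.0380), Ndufv3 (0.0381) and Ndufa13 (0.0446), by edgeR, with a background of 6.91% lower and 7.43% higher. Ndufa13, an accessory subunit also known as GRIM-19, was at 150, 105, 158 and 150 CPM in control and 77.4, 68.6, 134 and 131 CPM in EPS.

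**Figure D5:**
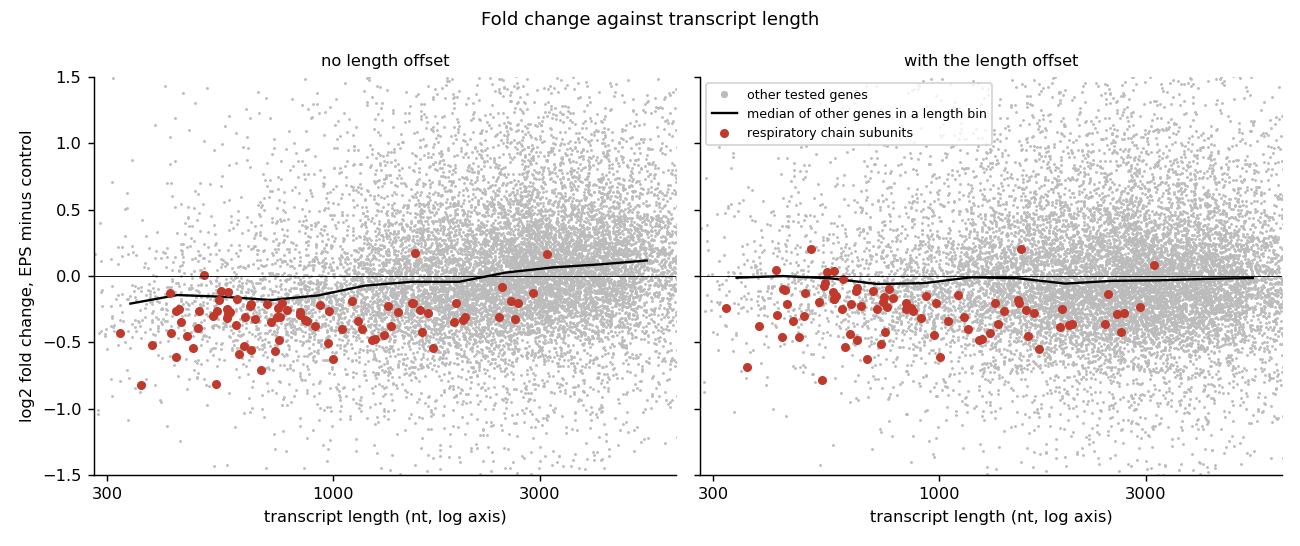
Log2 fold change (EPS minus control) against transcript length (nt, log axis) for the subunits (red) and other tested genes (grey; points beyond the axes are not drawn), without (left) and with (right) the length offset; the black line is the median of other genes in a length bin. On the left the black line is below 0 for short transcripts; on the right it is flat near 0, and 74 of the 80 subunits are still below 0.

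Genes that build or feed the chain were described from lists. Among 50 assembly factors, which insert cofactors or join subunits, 0 were called, 38 had negative estimates and the median log2 fold change was -0.22. Among 77 tested proteins of the mitochondrial ribosome, which translates the subunits encoded in mitochondria, 0 were called and the median was -0.16; with the block Mrps6 (adjusted p = 0.0387) and Mrpl14 (0.0340) were higher, by edgeR, and 2 of 77 is below the 7.31% of all tested genes that this fit called higher. Among 8 tested carriers and porins 0 were called and the median was -0.15, with the muscle ADP/ATP carrier Slc25a4 at -0.35. The 70 tested cytosolic ribosomal proteins, whose transcripts are short like those of the subunits, had 0 called and a median of -0.13. Their mean control levels ran from 0.39 CPM for Rpl24 to 915 CPM for Rpl4. Estimates were negative in 63 of 77 genes of the mitochondrial ribosome and 56 of 70 of the cytosolic one. Among carriers and porins 7 of 8 were negative. With the length offset the median of the cytosolic ribosome became -0.04. Those of assembly factors, mitochondrial ribosome and carriers and porins stayed at -0.23, -0.15 and -0.14. The assembly factors were thus lower than complex IV, at -0.19 with the offset.

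Only the list for mitochondrial DNA expression held a called gene. Twnk, the helicase that unwinds mitochondrial DNA for replication, rose from a mean of 24.1 CPM to 46.9 CPM, a log2 fold change of 0.85 ± 0.20 (SE; edgeR adjusted p = 0.0458). It was 1 of 20 tested genes, where 2.30% of all tested genes were called higher, and the call was lost on leaving out any library other than control replicate 2. The median of that list was 0.04, and 7 of 20 estimates were negative.

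Of the 13 subunits encoded in mitochondria, 12 are listed at 0 in every library and mt-Atp6 has 2 fragments in all, so they were not analysed here. Of the 7 members that were not tested, Cox4i2, Cox6b2, Cox7b2, Cox8c and Ndufa4l2 were near 0, and Atp5l and Atp5g2 share 68.5% and 87.4% of their windows with other transcripts. Counts of Cox7c (53.0% shared) and Atp5h (50.5%) are uncertain for the same reason, and 20 members overlap a tested gene on the opposite strand, with the strand setting of the counting not given in the sources used here.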

How the data were processed

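RNA from 8 libraries of C2C12 myotubes was sequenced after a stranded total RNA kit, per the labels' protocols. STAR 2.5.1, Cufflinks and Cuffdiff 2.2.1 with the mm10 genome are listed in the submitters' processing notes. Per the file headers, the authors' deposited table is Cuffdiff output, with estimated counts (expected counts of fragments, unscaled) and FPKM per gene and library. Counts were rounded, and 46 genes marked as having too many fragments were left out. Symbols and lengths came from GENCODE M21. Groups and numbers came from the sample titles. Genes were filtered with filterByExpr (minimum count 10, total 15), scaled by TMM and tested with the quasi-likelihood test of edgeR 4.0.16 (R 4.3.3, limma 3.58.1), without covariates, on the 8 libraries; p-values were adjusted by Benjamini-Hochberg over 13987 genes. The test and the length offset were tested on simulated data. Deviations of same-numbered libraries from their group means correlated at 0.44, 0.38, 0.49 and 0.43 over 7471 genes, each the highest for both of its libraries, so fits with a replicate block are given; control 3 with EPS 4 (0.39) and control 4 with EPS 3 (0.40) came close, so numbers 3 and 4 are not clearly distinct pairs. The length offset subtracts a loess trend of each library on log2 transcript length. Alternatives were DESeq2 1.42.0, limma on log2(FPKM + 0.1) or log2(FPKM + 1), other offsets and leaving out each library. A prior count of 2 was used for log2 CPM. The named genes are the called members, the extremes and most abundant of each complex, the isoform families, complex II, Cyc1, Cycs and core subunits; 1 member is in the group values but is not reported here by itself. Members and lists were chosen with earlier results of these data known. Limits from 3 fragments cover counting error only.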

Additional observations from a re-analysis of the deposited data

Results flagged for a closer look

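Among 100 groups of 4 libraries examined for the complex shares, isoform ratios and named subunits, 4 held a library set far from the other 3, and chance gives about 1 in 20 such groups. In 3 of the 4 it was control replicate 2, the shallow library: Cox8b at 45.4 CPM (nearest control 21.2), Ndufa4 at 139 CPM (92.4) and Ndufs1 at 230 CPM (150). These values rest on 16, 49 and 81 fragments. The last was Sdhd in control replicate 3, at 83.2 CPM with the nearest control at 70.9 CPM.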

How the results depend on the processing

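The call of 0 subunits higher held under every alternative run, and 0 lower under all but those with the replicate block: 2 with the block, 4 with the length offset and the block, and 5 with the block on 3 pairs. Between 72 and 79 of the 80 fold changes were negative. The block on 3 pairs, the length offset on 7 libraries and the lengths of the shortest transcripts were chosen after seeing the data. Genes called higher numbered 322 in the main fit, 1023 with the block, 1039 with length offset and block, 1290 with the block on 3 pairs, 659 with DESeq2, 94 and 130 with limma (pseudocounts 0.1 and 1), and 92 to 427 on leaving out a library. Genes called lower numbered 106, then 668, 967, 1167, 288, 29, 48 and 22 to 167, with 162 without the filter, 218 with the length offset, 316 with length and GC, 191 with the shortest transcripts and 294 on 7 libraries. Medians of the complexes stayed negative, and over all members the median ran from -0.21 to -0.47 on leaving out a library; complex IV was at -0.13 with the length offset on 7 libraries and at -0.17 with length offset and block. Assembly factors called were 1 with length offset and block and 1 with the block on 3 pairs; mitochondrial ribosome 2, 2 and 2 in the 3 fits with the block and 1 with length and GC; mitochondrial DNA expression 0 without the filter and with either limma fit, and 0 to 1 on leaving out a library. Among the named subunits, estimates near 0 changed sign: Cox6a1 to 0.038, 0.00052, 0.070 and 0.019, and Cox8a to 0.031, 0.075 and 0.020, with length offsets; Cox7a1 to 0.0076 with length offset and block; Cyc1 to 0.025 and 0.023 with limma; Uqcrq to -0.032 without the filter. On leaving out a library, Uqcrq ran from -0.13 to 0.28, Cox8a from -0.25 to 0.055 and Cycs from -0.0019 to 0.28. The causes were not tested. Depth limits control replicate 2, where 21 tested members had under 10 fragments.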
